A study of Homo sapiens with 4 samples.

Results

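Interleukin receptors are assembled at the cell surface from a small set of subunits, and 10 of these subunit genes are described here in 2 cancer cell lines that had received a microRNA. They are IL21R, IL4R, IL13RA1, IL2RG, IL10RB, IL22RA1, IL1R1, IL18R1, IL17RA and IL17RB. The genes were selected on their levels and changes on these same arrays, IL21R first, so all their values are descriptions. Each was matched by the gene name of the array design, with all of its probes and their background marks, which gave 19 of the 58201 gene probes and 10 of the 43317 gene names on the array.

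HCT116, an established colorectal cancer line, and A549, an established lung cancer line, were transfected with the lipid reagent Dharmafect1, carrying either miR-891b or the negative control RNA NC1. Each line has an NC1 arm and a miR-891b arm, which makes 4 groups, and every group went through transfection. Where a pair of values is given for a line, NC1 comes first and miR-891b second. The time after transfection, the RNA dose and an untransfected sample are not given in the sources used here. The title of the series concerns PSAT1, the aminotransferase of serine synthesis, and the release of vesicles by cancer cells. With 1 array per group no line has a replicate check, and no p-value is given.

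An interleukin receptor is usually a pair of different chains. IL21R binds IL-21 and pairs with the common gamma chain IL2RG, and the pair signals through JAK1, JAK3 and chiefly STAT3. IL4R pairs with IL2RG or with IL13RA1 and signals through STAT6, which gives epithelial cells their answer to IL-4 and IL-13. IL10RB is the shared chain of the receptors for IL-10, IL-22 and the lambda interferons, and IL22RA1 is its partner for IL-22 on epithelial cells. IL1R1 and IL18R1 recruit MYD88 with their co-receptors IL1RAP and IL18RAP. IL17RA pairs with IL17RC for IL-17A or with IL17RB for IL-25. IL21R and IL2RG are best known from lymphocytes.

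The transfected microRNA is shown because its seed is what a target transcript would have to pair with. The mature sequence is from RefSeq (GRCh38.p14, chrX:146001100-146001121, minus strand), with seed positions 2 to 8, counted from the 5′ end, in capitals.
miR-891b: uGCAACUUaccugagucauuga
The DNA letters that pair with this seed are AAGTTGC. They were in none of the 19 receptor probes on the sense strand, and in 229 (0.393%) of all gene probes. The letters of the shorter site AGTTGC were also in 0 of the 19 probes, against 1.18% of all gene probes. A probe covers 60 bases or fewer of a transcript, so this says only that these letters are not in those windows.

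Levels are log2 processed signal minus the 75th percentile of the array, and a change is the miR-891b level minus the NC1 level in the same line, in log2 units. A gene was read from its brightest probe and counted as measured in a line where both arms passed the scanner's mark for signal well above background on that probe. Probe positions are on hg19. Past 2-fold (1.0 log2 unit) is a size, not a test. The shares of gene probes well above background ran from 44.7% to 50.3% over the 4 arrays, and 0 gene spots were saturated. Repeat spots of one probe gave the error of spotting and reading, which leaves out culture, transfection and labelling. In HCT116 the SD of a difference between single spots had a median of 0.058 for bright probes (signal of 200 or more), 0.087 for signals of 30 to 200 and 0.19 below 30. In A549 the same medians were 0.069, 0.10 and 0.23. The medians below 30 rest on 5 probes in HCT116 and 6 in A549. Slide and scan were shared by the 2 arrays of a line and differed between the lines, so line and slide cannot be told apart. Areas of stray signal held 10.5% of spots on HCT116 miR-891b and at most 2.20% on the others, and only 1 receptor probe lay in one.

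Of the 7 markers chosen for A549, 6 were brighter on both A549 arrays than on both HCT116 arrays, and SFTA1P was the exception. Of the 8 markers for HCT116, CLDN7, CDX2, EPCAM and CLDN3 were brighter on the HCT116 arrays. ELF3 and LGALS4 were brighter on the A549 arrays, CDH1 overlapped, and GPA33 was well above background on none. Past 2-fold with miR-891b among these line markers were AKR1B10 (4.47) and ELF3 (at the limit, -1.0) in HCT116, and KRT81 (-1.64), ALDH3A1 (-1.17) and CLDN3 (1.03) in A549. Of 15 lymphoid and myeloid markers, 5 (CD3E, CD2, MS4A1, KLRD1 and TPSAB1) were well above background on no array. CD4 (levels of 4.41 to 4.70) and CD79A (3.01 to 3.45) were bright on all 4 arrays at the brightest probe of each. A second CD4 probe was well above background on no array, so the CD4 reading rests on the brighter probe. CD8A had a change of 2.59 in A549 at its brightest probe. A second CD8A probe gave -0.25 there, so its probes disagreed. The summed signal of the 15 was 2115 and 1788 in HCT116 NC1 and miR-891b, and 2801 and 2923 in A549 NC1 and miR-891b. That sum was thus lower with miR-891b in HCT116 and higher in A549, and its part in any receptor value was not tested.

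IL21R stood apart from the other 9 receptors. Its level was 1.66 and -0.70 in HCT116 and -2.45 and -4.94 in A549, and on A549 miR-891b the probe did not pass the background mark. The processed signals behind these levels were 173.1, 35.16, 13.68 and 2.42, with scanner errors of 17.36, 3.912, 1.863 and 1.34. Each of the 3 steps down this order of arrays was larger than the sum of the neighbouring scanner errors, so no 2 neighbouring arrays overlapped in that error.

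In HCT116 the IL21R change was -2.35, a linear ratio of 0.196, against a spot SD of 0.087. It was number 3 from the lowest of 19108 measured genes, whose median change was -0.041 with an SD of 0.38. Only 5 of those genes were at least 4-fold lower. With normexp background correction and quantile normalization, which pull low signals together, the change was -1.38. In A549 the receptor was at least 2.79-fold lower with miR-891b, a bound set by the dimmest probes that were well above background on that array. IL21R was therefore lower with miR-891b in both lines, measured in HCT116 and bounded in A549.

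The array holds 1 IL21R probe, so no other probe checks it. It lies at chr16:27461324-27461383 (hg19, plus strand), in a stretch that the array design assigns to the IL21R transcript, and it carries the polyadenylation signal letters AATAAA from position 52 of 60, letters that sit near the 3′ end of most messages. The surroundings of its spot showed stray signal in 4.05%, 1.78%, 3.49% and 6.22% of nearby dim spots on the 4 arrays in the order above, all under the limit of 10%.

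**Figure D1:**
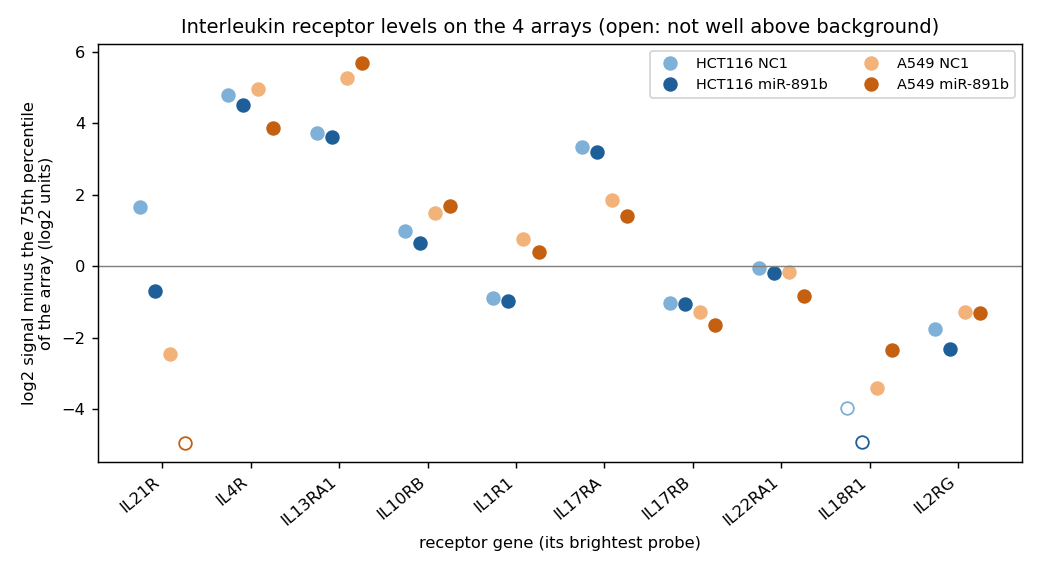
Level of the brightest probe of each of the 10 receptor genes (x axis) as log2 signal minus the 75th percentile of the array (y axis, log2 units). Each point is 1 array, with blue for HCT116, orange for A549, the darker shade for miR-891b and an open point for a probe not well above background. IL21R has 1.66 and -0.70 in HCT116 and -2.45 and -4.94 in A549 (NC1, then miR-891b), while IL4R and IL13RA1 lie above 3.5 on all 4 arrays.

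IL4R, the signalling chain for IL-4 and IL-13, was well above background on every array. Its brightest probe (chr16:27375999-27376058) had levels of 4.78 and 4.50 in HCT116 and 4.97 and 3.87 in A549, so the A549 miR-891b array was the lowest and the other arrays lay close together. The change was -0.28 in HCT116 (spot SD 0.058) and -1.10 in A549 (spot SD 0.069), a linear ratio of 0.466 in A549. A probe further upstream reads the coding part and gave the same order of arrays within each line. It is printed because it places the second reading of the A549 change within the protein-coding message (chr16:27357879-27357938, hg19, plus strand).
IL4R coding probe: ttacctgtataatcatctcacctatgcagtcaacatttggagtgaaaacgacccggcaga
Its levels were -2.12 and -2.50 in HCT116 and -1.49 and -2.40 in A549, which gave changes of -0.37 in HCT116 and -0.91 in A549. The A549 change was thus past 2-fold at the brightest probe and short of it at the coding probe. With quantile normalization it was -0.93 at the brightest probe, also short of 2-fold. The remaining IL4R probe (chr16:27352462-27352521) was well above background on HCT116 NC1 only and gave no fold. Averaged over all 3 probes, that dim one included, the HCT116 change was -0.88.

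IL13RA1, the partner of IL4R for IL-13, was higher in A549 than in HCT116 and stayed within 2-fold between arms. The brightest probe (chrX:117928406-117928465) had levels of 3.72 and 3.61 in HCT116 and 5.26 and 5.69 in A549. Both A549 arrays lay above both HCT116 arrays, and the changes were -0.11 in HCT116 (spot SD 0.058) and 0.42 in A549 (spot SD 0.069). With quantile normalization the A549 change was 0.66, and with normexp before it 0.67. The second probe is printed because it crosses a splice junction and so reads joined exons. Its bases are spread over chrX:117892164-117895118 (hg19, plus strand), a span far longer than the probe.
IL13RA1 junction probe: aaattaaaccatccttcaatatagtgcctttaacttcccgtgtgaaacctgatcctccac
On it the levels were -0.50 and -0.52 in HCT116 and 1.35 and 1.57 in A549. Its change of -0.02 in HCT116 was within the spot SD of 0.087 and so has no readable sign, its A549 change was 0.22, and the A549 arrays were again the higher ones.

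IL2RG, the chain that IL21R and IL4R share, was near the low end of what the arrays could read. The levels of its brightest probe (chrX:70327271-70327330, minus strand) were -1.75 and -2.32 in HCT116 and -1.27 and -1.30 in A549, all well above background. Its change was -0.57 in HCT116 (spot SD 0.19) and -0.03 in A549 (spot SD 0.10), so the A549 arrays could not be told apart. The other probe, shown because it covers the membrane-spanning part of the coding sequence, stayed below the background mark on all 4 arrays (chrX:70328480-70328539, hg19, minus strand).
IL2RG membrane-span probe: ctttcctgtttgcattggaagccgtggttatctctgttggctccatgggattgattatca
With normexp and quantile normalization the HCT116 change was -0.15. Averaging both probes turned the sign to 0.24 in HCT116 and 0.39 in A549, so no direction is held for IL2RG across probe rules.

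IL10RB, the shared chain for IL-10, IL-22 and the lambda interferons, had levels of 0.98 and 0.64 in HCT116 and 1.49 and 1.70 in A549 from its 1 probe (chr21:34668516-34668575). It was slightly lower with miR-891b in HCT116 and slightly higher in A549, and the A549 arrays were the 2 highest. The changes were -0.34 in HCT116 (spot SD 0.087) and 0.22 in A549 (spot SD 0.069), each larger than the spot error. With normexp and quantile normalization the HCT116 change was -0.16.

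IL22RA1, the epithelial chain that joins IL10RB to bind IL-22, had levels of -0.05 and -0.19 in HCT116 and -0.16 and -0.82 in A549. Its 1 probe lies at chr1:24446235-24446278. Only A549 miR-891b stood below the rest, with a change of -0.67 in A549 against -0.13 in HCT116. The A549 change was past 1.5-fold but not past 2-fold, and with normexp and quantile normalization it was -0.33, short of both.

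IL1R1, the signalling receptor of IL-1, was higher in A549 than in HCT116 at both of its probes. The brightest one is printed because it lies in the coding sequence of the cytoplasmic TIR domain, the part that recruits MYD88 (chr2:102792046-102792105, hg19, plus strand).
IL1R1 TIR-domain probe: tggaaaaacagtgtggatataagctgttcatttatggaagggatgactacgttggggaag
The levels on it were -0.90 and -0.96 in HCT116 and 0.76 and 0.39 in A549. The HCT116 arrays differed by less than the spot error, with a change of -0.06 against an SD of 0.19. In A549 the change was -0.36. The second probe gave -0.14 in A549, and in HCT116 it was at least 1.16-fold lower, since it was not well above background with miR-891b. Averaged over both probes the HCT116 change was -0.27.

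IL18R1, the binding chain of the IL-18 receptor, was read in A549 only. The brightest of its 3 probes (chr2:103014718-103014777) had processed signals of 3.497 and 1.882 in HCT116, below the background mark, and of 7.102 and 14.74 in A549, above it. The A549 levels of -3.40 and -2.33 gave a change of 1.06 against a spot SD of 0.23, at signals close to the detection limit. The other 2 probes were well above background on no array. With normexp and quantile normalization the change was 0.13, and averaged over the 3 probes it was 0.17, so the step past 2-fold rests on 1 dim probe.

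IL17RA, the chain shared by receptors of the IL-17 family, was read by 3 probes that disagreed in A549. The brightest (chr22:17590766-17590825) had levels of 3.34 and 3.20 in HCT116 and 1.86 and 1.41 in A549. At this probe HCT116 was the higher line on both arms, and the changes were -0.13 in HCT116 and -0.44 in A549. A neighbouring probe (chr22:17590940-17590999) gave -0.18 in HCT116 and 0.34 in A549, and 22.9% of the dim spots around it carried stray signal on HCT116 miR-891b. The third, furthest towards the 3′ end (chr22:17596268-17596327), gave -0.20 in HCT116 and 1.30 in A549. All 3 probes were thus slightly lower with miR-891b in HCT116. In A549 they ran from -0.44 to 1.30, and the gene has no settled direction there. On the miR-891b arrays A549 minus HCT116 was -1.79, -0.16 and 0.14 at the 3 probes in this order. The order of the lines on that arm is therefore not held across probes.

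IL17RB, which joins IL17RA to bind IL-25, hardly differed between arms in HCT116. From its 1 probe (chr3:53899592-53899651) the levels were -1.03 and -1.06 in HCT116 and -1.27 and -1.65 in A549, so A549 miR-891b was the lowest array. The change of -0.03 in HCT116 was within the spot SD of 0.19 and turned to 0.01 with median scaling. In A549 it was -0.38 against a spot SD of 0.23, and -0.15 with normexp and quantile normalization.

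**Figure D2:**
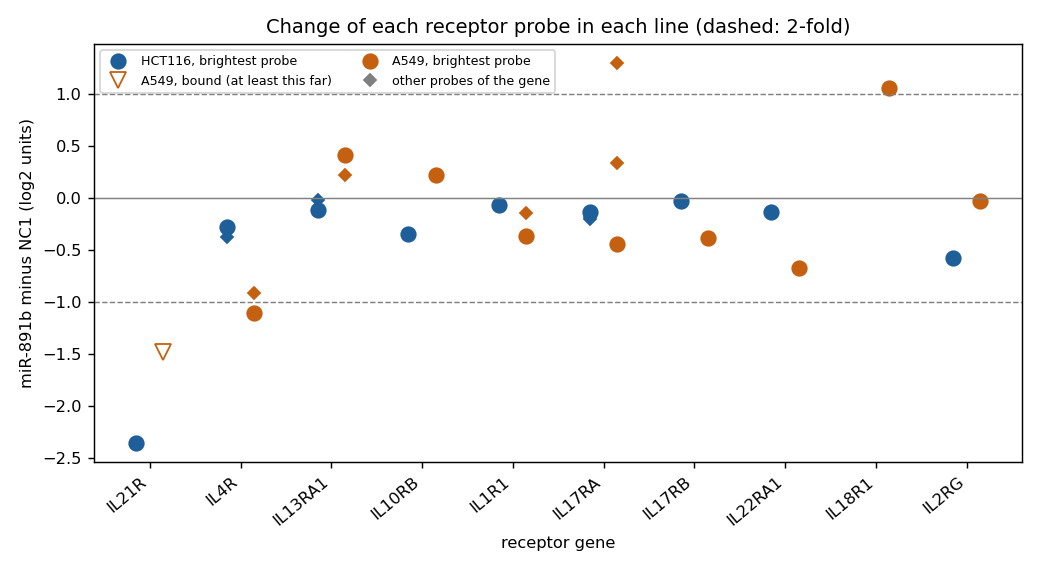
Change (miR-891b minus NC1, log2 units, y axis) of every receptor probe measured in a line, by gene (x axis), with HCT116 in blue and A549 in orange. Large circles are the brightest probe, small diamonds the other probes, the open triangle is the bound for IL21R in A549 and dashed lines mark 2-fold. IL21R at -2.35 is the lowest circle, and the IL17RA probes in A549 run from -0.44 to 1.30.

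Most of the receptors stayed within 2-fold in each line. In HCT116 all 9 measured receptors had changes below 0 at their brightest probes, with a median of -0.13. Of all measured genes 55.4% were below 0, with a median of -0.041. Not all 9 signs can be read. IL1R1 (-0.06) and IL17RB (-0.03) were within the spot SD of 0.19. IL17RB turned to 0.01 with median scaling, and IL2RG to 0.24 with the mean over probes. IL21R alone was at least 2-fold lower, against 0.843% of all measured genes, and 0 receptors were at least 2-fold higher, against 1.16%. The other 8 measured changes lay between -0.57 and -0.03, and 7 were within 0.5 of 0.

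A549 gave a mixed picture. Of the 9 measured receptors 6 had changes below 0 and 3 above, with a median of -0.36 where the median of 21338 genes was -0.059. IL4R was the 1 measured receptor at least 2-fold lower, against a background of 5.57%, and IL18R1 the 1 at least 2-fold higher, against 4.01%. IL21R is not in these A549 counts, since it was dark with miR-891b. Averaging over all probes of a gene moved the A549 median to 0.17, so the sign of that median depends on the probe rule. In HCT116, 7 of 9 changes were larger than the spot SD, and in A549 8 of 9 were. No such count is given for all genes. The SD of all measured changes, 0.38 in HCT116 and 0.61 in A549, was above every spot SD used. The count therefore does not set the receptors apart.

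The NC1 arrays also give the starting levels of the 2 lines, subject to the shared slide. Differences here are A549 minus HCT116. Among 9 receptors measured on both NC1 arrays, IL21R (-4.11) and IL17RA (-1.48) were at least 2-fold lower in A549, against 16.2% of all measured genes. IL1R1 (1.66) and IL13RA1 (1.54) were at least 2-fold higher, against 11.1%. IL10RB differed by 0.50, IL2RG by 0.48, IL4R by 0.19, IL22RA1 by -0.11 and IL17RB by -0.24. The second probes had the same sign for IL13RA1 (1.85), IL1R1 (1.19) and IL17RA (-0.68). On the miR-891b arrays IL21R was at least 9.42-fold higher in HCT116, and IL18R1 was at least 1.74-fold higher in A549.

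IL21R and IL4R are neighbours on chromosome 16, and IL4R was the measured receptor at least 2-fold lower in A549. The genes around them were read to see whether the whole stretch moved. IL21R-AS1, an antisense RNA whose probe lies 2.3 kb upstream of the IL21R probe on the other strand, had levels of -1.80 and -1.94 in HCT116 and -0.86 and -0.16 in A549. It changed by -0.14 in HCT116 and 0.69 in A549, and its A549 arrays were the brighter ones, the reverse of IL21R. Each probe is a single-stranded oligonucleotide of stated strand. The reading of strand also rests on which strand the labelling marks, which was not examined here.

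GTF3C1, a subunit of an RNA polymerase III factor, lies 12.4 kb on the other side and had changes of -0.15 in HCT116 and -0.14 in A549. Between IL4R and IL21R, lnc-IL4R-1 had changes of 0.06 and 0.19 in those lines. Further out, KDM8 gave 0.10 in HCT116 and 0.25 in A549. NSMCE1, a subunit of the SMC5/6 complex, gave -0.19 at both probes in HCT116 and -1.38 and -1.28 in A549. Among the probes within 250 kb that were measured in HCT116, IL21R was the only one past 2-fold there, and lnc-NSMCE1-1, dark on both NC1 arrays, was at least 2.04-fold higher.

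**Figure D3:**
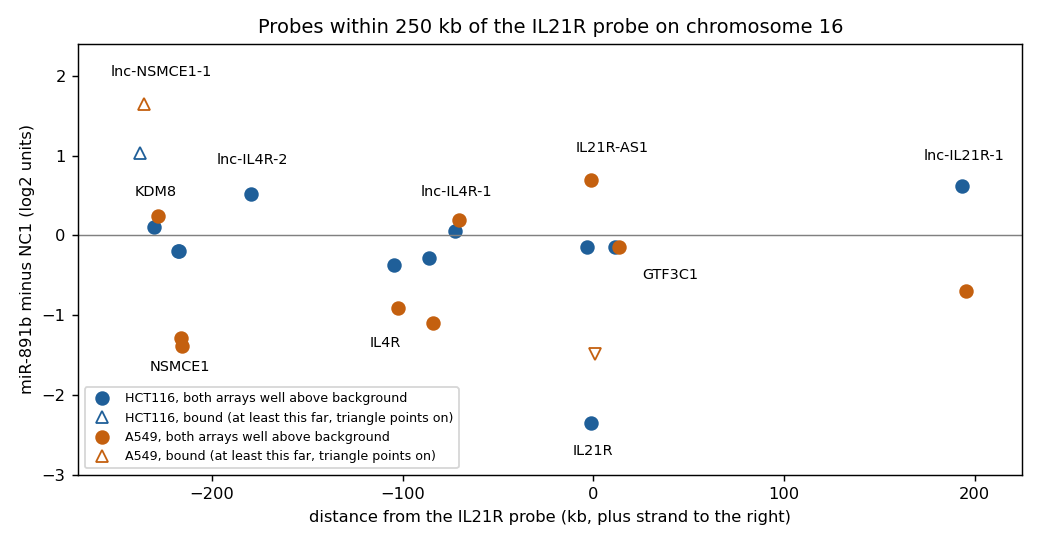
Change (miR-891b minus NC1, log2 units, y axis) of probes within 250 kb of the IL21R probe against their distance from it in kb (x axis), with HCT116 in blue and A549 in orange. Open triangles are bounds and point the way the true value lies. IL21R at -2.35 in HCT116 has IL21R-AS1 at -0.14 and GTF3C1 at -0.15 on either side of it.

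The promoters of these neighbours are shown because the genes lie side by side on the plus strand and differ in sequence make-up. Each is the 250 bases before the gene's start in RefSeq (GRCh38.p14), with CG pairs in capitals, at chr16:27427021-27427270 for IL21R and chr16:27313724-27313973 for IL4R.
IL21R promoter: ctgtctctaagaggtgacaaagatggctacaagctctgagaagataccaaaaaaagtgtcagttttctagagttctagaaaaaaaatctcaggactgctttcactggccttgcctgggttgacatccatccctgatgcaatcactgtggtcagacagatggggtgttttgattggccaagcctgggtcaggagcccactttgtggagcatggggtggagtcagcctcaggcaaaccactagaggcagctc
IL4R promoter: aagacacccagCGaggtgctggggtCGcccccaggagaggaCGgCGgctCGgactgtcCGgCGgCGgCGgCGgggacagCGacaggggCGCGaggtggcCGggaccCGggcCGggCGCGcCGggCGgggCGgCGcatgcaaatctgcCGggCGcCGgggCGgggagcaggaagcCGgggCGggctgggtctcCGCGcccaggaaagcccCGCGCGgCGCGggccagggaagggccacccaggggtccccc
The IL21R window holds 0 CG pairs at a GC content of 49.2%, and the IL4R window holds 35 at 80.8%. Of 35116 promoter windows, 6.06% hold no CG pair, and the median window has 11 with a GC content of 58.0%. The table matched 9 of the 10 receptors, IL17RA being the one without an entry. IL17RB also had 35 CG pairs, IL13RA1 28, IL10RB 17, IL22RA1 7 and IL2RG 3. IL1R1 had 4 listed starts with 3 to 31 pairs, and IL18R1 had 2 with 14 and 21.

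Letters of STAT sites were looked for on both strands of the same windows, as a description only. The letters TTCNNNGAA, the general STAT spacing, were in 6.57% of all windows and in 1 of the 4 IL1R1 windows. The longer form TTCNNNNGAA, preferred by STAT6, was in 5.38% of all windows and in 1 of the 2 IL18R1 windows. Neither was found in the listed windows of the other 7 receptors.

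The 5 genes nearest to IL21R in pattern were found by the root mean square difference of the 4 levels after each gene's own mean was subtracted. The search covered 101 gene names with the same background marks, leaving out names that are only an accession or locus number. These were CTF1 (0.52), a cytokine of the IL-6 family, LAMP3 (0.53), TNNC1 (0.64), RASGRP2 (0.65) and C6orf223 (0.69). In HCT116 their changes were -0.90, -0.89, -1.87, -0.87 and -1.06, so each was smaller in size than that of IL21R. All 5 were also dark on A549 miR-891b, with bounds of 1.41-fold to 4.90-fold lower. Of the 188 gene names with these marks before such names were left out, 9 were at least 2-fold lower in HCT116 and 1 was at least 4-fold lower.

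Among 39 other interleukin and related cytokine receptor subunits, 21 were measured in HCT116 with 0 at least 2-fold lower and 1 higher, where the shares over all measured genes were 0.843% and 1.16%. That one was IL6R, the binding chain for IL-6, with levels of -2.83 and -1.14 in HCT116 and -3.24 and -0.04 in A549. Both miR-891b arrays were above both NC1 arrays, with changes of 1.69 and 3.20. IL6R was dim on both NC1 arrays, with processed signals of 7.738 in HCT116 and 7.927 in A549. The dimmest probes well above background on those arrays had 4.69 and 4.82. A second IL6R probe was dark on both HCT116 arrays. In A549 that probe was dark with NC1 and brighter with miR-891b. Of the 39 subunits 27 were measured in A549, with 1 lower and 4 higher past 2-fold, where the shares over all genes were 5.57% and 4.01%. The 4 were IL6R, IL7R (1.04), IL10RA (1.29), the partner of IL10RB for IL-10, and IL15RA (1.27). The IL15RA probes disagreed in A549. Other probes gave -0.01 and 0.06, and another was dark on A549 NC1 and brighter with miR-891b. IL10RA was dim on A549 NC1, with a processed signal of 6.351 where the dimmest probe well above background had 4.82. IL10RA had a change of -0.68 in HCT116. The medians of this list were -0.17 in HCT116 and 0.11 in A549.

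IL1RAP, the co-receptor that IL1R1 needs to signal, was at least 2-fold lower in both lines. Its levels were -1.65 and -3.58 in HCT116 and 0.04 and -1.53 in A549, with HCT116 miR-891b not well above background. It was at least 2.80-fold lower in HCT116 and had a change of -1.57 in A549. A second IL1RAP probe gave -1.13 in A549, and both were dark on at least 1 HCT116 array. IL18RAP, the co-receptor of IL18R1, had changes of 0.05 and -0.17, and IL17RC, the partner of IL17RA, of -0.37 and 0.40, in HCT116 and A549. The decoy chain IL13RA2 was well above background on no array.

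**Figure D4:**
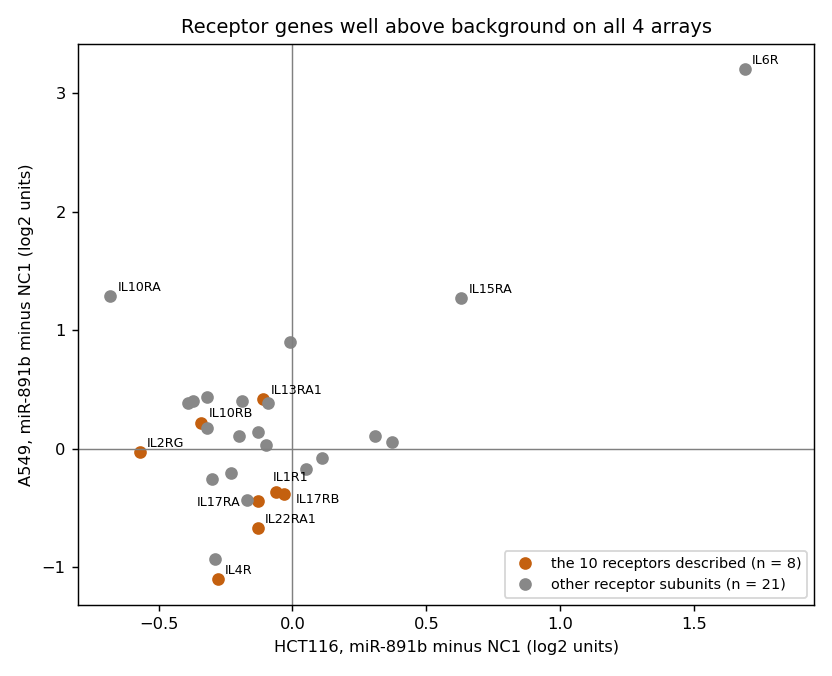
Change in A549 (y axis) against change in HCT116 (x axis), both miR-891b minus NC1 in log2 units, for receptor genes well above background on all 4 arrays. Orange points are 8 of the 10 receptors described, and grey points are 21 other subunits. IL6R stands far up at 1.69 and 3.20, and IL4R is the lowest in A549 at -1.10.

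Most ligands of these receptors were not read in either line. Of 29 ligands and natural antagonists, 15 were well above background on no array, IL21, IL4, IL13, IL22 and IL1A among them. IL15, which also signals through IL2RG, had changes of -0.07 in HCT116 and -0.48 in A549, and IL18 had -0.14 and -0.28. Past 2-fold, 0 of the 7 ligands measured in HCT116 were called, and 2 of the 7 in A549 were higher, IL1B (1.70) and IL17D (1.25), where 4.01% of all measured genes were. The HCT116 shares over all measured genes were 0.843% lower and 1.16% higher.

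The kinases and transcription factors that the receptors use showed no change past 2-fold in either line. Over all measured genes, 0.843% were at least 2-fold lower and 1.16% higher in HCT116, and 5.57% and 4.01% in A549. Such shares give few or no calls in lists this short. Of 11 JAK kinases and STAT factors, 10 were measured in HCT116, with a median of -0.19, and 11 in A549, with a median of 0.05. In HCT116 and A549, JAK1, used by most of these receptors, had changes of 0.08 and -0.30, and JAK2 of -0.01 and 0.05. JAK3, which binds IL2RG, had changes of -0.79 and -0.15, and its second probe gave -0.46 and 0.65. TYK2, the remaining JAK kinase, had changes of -0.74 and -0.73. STAT3, the main factor downstream of IL21R, had -0.67 and 0.50, and its second probe gave -0.28 and 0.13. STAT6, downstream of IL4R, had -0.25 and 0.09. Of 15 adaptors and kinases of the IL-1, IL-18 and IL-17 receptors, 14 were measured in each line, also with 0 past 2-fold and medians of 0.06 and 0.01. MYD88, the adaptor of IL1R1 and IL18R1, had -0.11 and 0.09.

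Of 16 negative regulators, all measured in both lines, 0 passed 2-fold in HCT116 and SOCS1 alone did in A549, with a change of 1.19. The shares over all measured genes were 0.843% lower and 1.16% higher in HCT116, and 5.57% and 4.01% in A549. SOCS1, an inhibitor of JAK kinases, had levels of 1.07 and 0.95 in HCT116 and -2.35 and -1.16 in A549. CISH, a STAT5 target and inhibitor, had changes of -0.19 in HCT116 and 0.90 in A549.

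Genes known to answer IL-4 and IL-13 went in both directions. CCL26, the eosinophil attractant eotaxin-3, had levels of -3.05 and -0.40 in HCT116 and -0.47 and 2.65 in A549. It was higher with miR-891b in both lines, by 2.65 in HCT116 and 3.12 in A549. MUC5AC, a secreted mucin, had a change of -1.63 in A549 at its brightest probe. Its other probes gave -1.53 and -0.65 there, the latter short of 2-fold. Of the 10 genes in that list 3 were measured in HCT116 and 7 in A549, and no other measured gene of the list passed 2-fold. Among all measured genes 1.16% were at least 2-fold higher in HCT116. In A549 4.01% were higher and 5.57% lower.

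Of 18 genes known to answer IL-1 and IL-17, 8 were measured in HCT116 and 13 in A549. In HCT116 only BIRC3 passed 2-fold among the measured ones (1.14), and 24.8% of dim spots near its probe carried stray signal. S100A8, dark on HCT116 NC1, was at least 4.87-fold higher with miR-891b there, at a probe with 16.1% of nearby dim spots carrying stray signal on that array. In A549, LCN2 (-2.89), an antibacterial siderophore-binding protein, and ZC3H12A (-1.02), an RNase that limits IL-17 signals, were lower, and NFKBIZ (1.04), an IL-17 target, was higher. The A549 median of that list was -0.55, beside -0.059 for all genes. Of 8 genes known to answer IL-22, 0 of 4 measured in HCT116 and 0 of 3 in A549 passed 2-fold. Beside the counts of both lists, the shares over all measured genes were 0.843% lower and 1.16% higher in HCT116. In A549 they were 5.57% and 4.01%.

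Fibroblasts carry IL1R1 strongly, and the culture notes of the study mention fibroblast lines. Of 6 fibroblast markers, COL3A1 and DCN were well above background on no array. The summed signal of the 6 was 143.7 and 123.0 in HCT116 NC1 and miR-891b, and 317.4 and 781.3 in A549 NC1 and miR-891b. The measured markers went in different directions in A549, with LUM at 2.14, THY1 at -1.04, COL1A1 at -0.59 and PDGFRB at -0.04, and LUM alone held 668.2 of the 781.3. IL1R1 had -0.36 there, and the part of such cells in the IL1R1 level was not tested.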

How the data were processed

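Total RNA (100 ng) was labelled with Cy3 and hybridised to 1-colour Agilent arrays, per the labels' protocols. The scanner files deposited by the authors hold intensity values on a linear scale, made with Feature Extraction 11.5.1.1 and with probe positions on hg19, per the file headers. The deposited series table holds the authors' log2 values, whose making is not stated. They matched log2 processed signal minus the 75th percentile of each array to a median difference of at most 0.0069 (largest 0.11), with column medians of -3.80 to -3.60, which settles scale and centring.

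Spots marked as outliers were dropped, repeat spots averaged and the 75th percentile over gene probes subtracted. A gene's brightest probe is the one with the highest mean level. Where 1 array of a pair was dark, its value was raised to the lowest signal among probes well above background there, which gives the "at least" folds. A spot lay in a stray area where, of the spots up to 10 rows or columns away and dim elsewhere, at least 10% passed the background mark. Samples were grouped by title. With 1 array a group, no test within a line was possible. A fit over both lines with the line as a term leaves 1 residual degree of freedom and was not run, since the receptors were selected on these same changes.

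The receptors, the gene lists and the naming rule were chosen with earlier results of these data known. The rule named all receptors, the genes of the pathway lists past 2-fold where measured, partner subunits (IL1RAP, IL18RAP, IL17RC, IL10RA, IL13RA2), JAK1, JAK2, JAK3, STAT3, STAT6, MYD88 and the 5 genes most like IL21R. The neighbours within 250 kb, the ligands not past 2-fold, CISH, S100A8, TYK2 and single genes of the marker lists were named after their values were seen. Alternatives were normexp (offset 50) with quantile normalization (limma 3.58.1 in R 4.3.3), quantile normalization alone, median scaling, the authors' values, the mean over probes, no filter on dim probes, no stray areas, and thresholds of 1.5-fold and 3-fold. The calling step was tested on simulated data. Other steps used Python 3.11.15, numpy 2.4.6, pandas 2.3.3 and matplotlib 3.10.9. Names come from the array design, and exon annotation of hg19 was not used here.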

Additional observations from a re-analysis of the deposited data

Results flagged for a closer look

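IL13RA1 and IL10RB had changes of opposite sign in the 2 lines at their brightest probes, lower with miR-891b in HCT116 and higher in A549. In HCT116 the changes were -0.11 and -0.34, within the SD of 0.38 over all measured genes. In A549 they were 0.42 and 0.22, within the SD of 0.61. The change in A549 minus the change in HCT116 was 0.54 log2 units for IL13RA1 and 0.56 for IL10RB. Each line has 1 array per arm, so this difference was not tested. At the second IL13RA1 probe the change was 0.22 in A549 and -0.02 in HCT116, the latter within the spot SD of 0.087, so that probe gives no sign in HCT116.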

How the results depend on the processing

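IL21R was the 1 receptor past the fold limit in HCT116 under all 9 alternatives run, which include the limits of 1.5-fold and 3-fold. Its changes ran from -2.35 to -1.38 over the 7 that give a value. With 1 probe, well above background in HCT116 and outside stray areas, it could not move with the mean over probes, no filter or no stray areas. The authors' values share the scaling used here. Quantile normalization gave -2.31, median scaling -2.32 and normexp with quantile normalization -1.38. The 2 receptors past 2-fold in A549 became 0 with normexp and quantile normalization and at 3-fold, and 1 with quantile normalization (IL18R1) or the mean over probes (IL4R). The median receptor change in A549, -0.36, became -0.15 with normexp and quantile normalization and 0.17 with the mean over probes. In HCT116, -0.13 became -0.21 with no filter. The median difference between the lines on NC1, 0.19, became 0.33 with quantile normalization, 0.28 with median scaling, 0.06 with the mean over probes and 0.34 with no filter.

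Counts of all genes past 2-fold, 382 in HCT116 and 2044 in A549, became 39 and 764 with normexp and quantile normalization, 4222 and 6015 with no filter, 1827 and 5628 at 1.5-fold, and 81 and 550 at 3-fold. The share of called genes that were higher in HCT116 was 57.9%. It was 69.2% with normexp and quantile normalization, 64.3% with median scaling, 50% with quantile normalization, 66.0% with no filter, 64.7% with probes averaged, 49.3% without stray areas, 40.9% at 1.5-fold and 84.0% at 3-fold. With the mean over probes, signs turned for IL17RA in A549 (0.40) and IL2RG in HCT116 (0.24) and A549 (0.39), and with median scaling for IL17RB in HCT116 (0.01) and IL2RG in A549 (0.03). The cause was not tested, apart from the fewer or dimmer probes that each alternative itself sets. Signals near the detection limit bound IL21R on A549 miR-891b and IL18R1 in HCT116. No pairing of replicates within a line was possible, because each arm has 1 array and the labels give no replicate numbers. Pairing the arms by line would leave 1 residual degree of freedom, and it was not run, since the receptors were selected on these changes.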
